A study of Mus musculus with 16 samples.

Results

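A set of 10 genes that mark inhibitory interneurons or encode their peptides was followed in whole brains of Tecpr2 knock-in and wild-type mice. The genes were taken by name, as Gad1, Gad2, Slc32a1, Pvalb, Sst, Vip, Npy, Cck, Cort and Crh, and make up 10 of the 55404 genes listed in the deposited table. Tecpr2 encodes a tectonin repeat protein of the autophagy and endolysosomal system, and the study asked how its loss changed gene expression in the brain. Total RNA was sequenced after depletion of ribosomal RNA, with strand-specific libraries, from 8 mice of each genotype, Tecpr2 ki/ki and wt/wt. The 16 animals were untreated males aged 5 months. The ki/ki mice carried the L1152fs frameshift (L1152Yfs in the study's methods) on both alleles, in a line made by CRISPR/Cas9 editing of C57BL/6J zygotes and bred to C57BL/6J, so the mutation was germline and not limited to a cell type. The wt/wt mice carried the unmutated gene on both alleles.

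Inhibitory neurons make GABA from glutamate with the glutamate decarboxylases GAD67 and GAD65, encoded by Gad1 and Gad2, and load it into synaptic vesicles with the transporter VGAT, encoded by Slc32a1. Cortical and hippocampal interneurons are sorted into classes by the calcium-binding protein parvalbumin and by the peptides that they release beside GABA, among them somatostatin, vasoactive intestinal peptide, neuropeptide Y, cholecystokinin, cortistatin and corticotropin-releasing hormone. The first group of genes is not restricted to interneurons, since striatal projection neurons and Purkinje cells also use GABA, and Cck and Crh are also made by glutamatergic or neuroendocrine neurons. In RNA from a whole brain, fewer cells of a type and less RNA per cell cannot be told apart.

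The RefSeq start regions of the Gad genes and of the somatostatin and cortistatin genes are shown because these 4 genes had the smallest p-values of the set. Each run is the 150 bases upstream of the RefSeq transcription start in the assembly GRCm38.p6, read 5′ to 3′ on the strand of the gene. This start can differ from the outer bound of the gene in GENCODE, which is the coordinate given with each gene in the results, so the Gad1 window lies inside the GENCODE gene and the Gad2 and Sst windows overlap theirs. Capitals mark TGACG, the core of the cyclic AMP response element that the factor CREB binds, or its reverse complement CGTCA, and overlapping matches are joined. The windows lie at chr2:70561979-70562128 (+) for Gad1, chr2:22622177-22622326 (+) for Gad2, chr16:23890845-23890994 (-) for Sst and chr4:149126764-149126913 (-) for Cort.
Gad1: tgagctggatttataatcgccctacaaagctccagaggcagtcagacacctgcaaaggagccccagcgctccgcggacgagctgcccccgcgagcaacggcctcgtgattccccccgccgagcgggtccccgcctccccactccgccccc
Gad2: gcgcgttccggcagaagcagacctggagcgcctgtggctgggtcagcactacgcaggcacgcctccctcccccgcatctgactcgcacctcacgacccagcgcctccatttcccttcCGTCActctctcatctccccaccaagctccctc
Sst: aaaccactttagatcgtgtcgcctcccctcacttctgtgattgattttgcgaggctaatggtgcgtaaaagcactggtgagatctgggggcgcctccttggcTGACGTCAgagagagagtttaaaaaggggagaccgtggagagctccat
Cort: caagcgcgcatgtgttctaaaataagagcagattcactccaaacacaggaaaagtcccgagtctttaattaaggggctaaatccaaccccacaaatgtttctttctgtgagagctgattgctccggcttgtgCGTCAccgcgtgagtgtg

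The Sst window held the full palindrome TGACGTCA, the sequence through which the response element was first described in this gene, starting 48 bases before the RefSeq start. Counted the same way, a single TGACG or CGTCA began 33 bases upstream in Gad2 and 18 bases upstream in Cort, and also 79 bases upstream in Vip and 47 bases upstream in Cck. Of the 9 members with an entry in the table, 5 therefore held the core and 4 (Gad1, Slc32a1, Pvalb and Npy) held no such letters in the window. Over all 32851 promoters of the same length, 13.3% held TGACG on either strand and 1.36% held TGACGTCA. These matches describe letters only, and binding was not measured.

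Sst and Cort encode related peptides that act on the same receptors, and the coding stretches at the end of both genes show their likeness. The runs of 39 bases lie at chr16:23889732-23889770 (-) for Sst and chr4:149125270-149125308 (-) for Cort in the GENCODE annotation of GRCm38, and capitals mark the bases at which they differ. They shared 31 of 39 bases (79.5%).
Sst: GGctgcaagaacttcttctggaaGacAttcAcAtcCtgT
Cort: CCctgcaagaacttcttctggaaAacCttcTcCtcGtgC

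Values are the normalized read counts as deposited, rounded to whole numbers and scaled so that the libraries can be compared. They summed to 11964284 to 12157263 in the ki/ki libraries and 12010067 to 12252324 in the wt/wt libraries, and the steps between low values gave estimated depths of 9.23 to 14.26 and 10.08 to 15.39 megareads assigned to genes. Tecpr2 itself lay between 274 and 320 in ki/ki mice and between 928 and 1002 in wt/wt controls (log2 fold change -1.68, limma adjusted p = 2.16e-47), so that every library matched its genotype label. Markers of neurons, astrocytes, microglia, oligodendrocytes and vessels were detected in all libraries. A gene is called changed where the adjusted p of the limma fit over 23244 tested genes was under 0.1.

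Of the 10 genes, 1 was called, Gad1, which fell in ki/ki brains, while Gad2, Slc32a1, Pvalb and the 6 peptide genes did not pass the test. Over all tested genes 31 (0.133%) were called, 9 of them lower in ki/ki mice (0.0387%) and 22 higher (0.0946%). At an unadjusted p under 0.05, 4 of the 10 were lower (Gad1, Gad2, Sst and Cort) and none was higher, against 6.08% of all genes in either direction and 3.01% in the lower direction. The fitted log2 fold change was below 0 for 8 of the 10 genes and for 50.5% of all tested genes, and its median was -0.054 for the set and -0.001 for all genes. In none of the 10 genes were the values of the genotypes apart, which was so for 20 genes in all (0.086%). The 10 genes were chosen with earlier results of these data known, so these counts describe them and are not independent evidence.

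**Figure D1:**
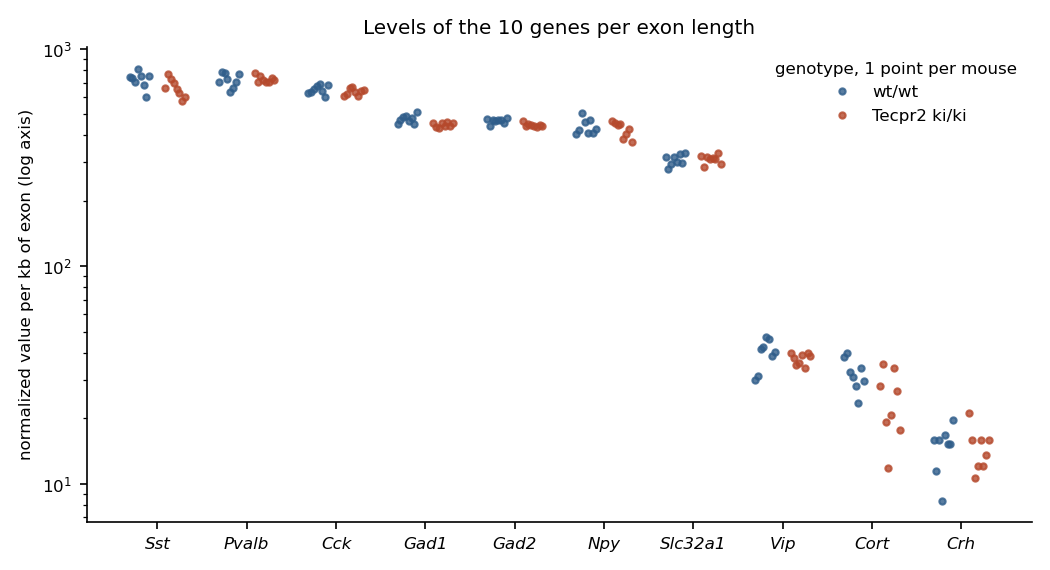
Normalized value per kilobase of exon (log axis) of each gene in each mouse, with wt/wt mice in blue and ki/ki mice in red, ordered by the wt/wt mean. Sst, Pvalb and Cck lie highest, Gad1, Gad2, Npy and Slc32a1 follow, and Vip, Cort and Crh lie below all of these in every mouse. This order depends on the annotated exon lengths.

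Levels of different genes were compared per kilobase of annotated exon. The divisor joined the exons of all annotated transcripts of a gene, 7639 bases for Gad1 and 721 for Sst. Which transcripts were expressed was not measured, so the order below depends on this divisor. In wt/wt brains Sst had 723 ± 61 normalized reads per kilobase, Pvalb 718 ± 55.2 and Cck 650 ± 30.8 (SD, n = 8), and the ranges of neighbours in this order overlapped. Gad1 (476 ± 19.8), Gad2 (466 ± 12.7) and Npy (439 ± 36.5) formed the next level, again with overlapping ranges, and lay below every Cck value. Slc32a1 stood alone at 308 ± 17.3. Vip (39.7 ± 6.3) and Cort (32.1 ± 5.34) overlapped with each other, and Crh was lowest at 14.8 ± 3.46, below every Cort value.

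**Figure D2:**
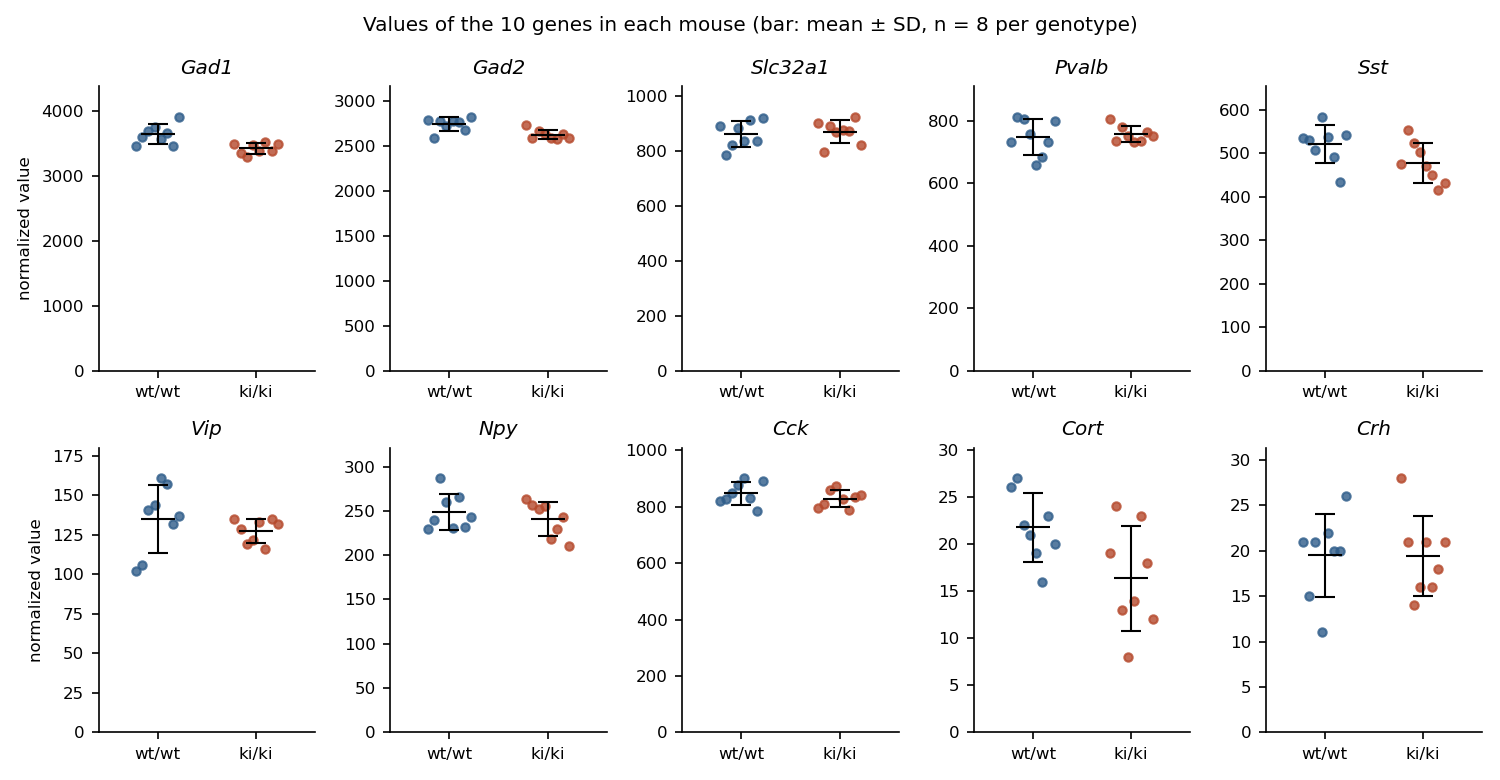
Normalized value (vertical axis, from 0) of each gene in the 8 wt/wt (blue) and 8 ki/ki (red) mice, with bars for the mean ± SD. The genotypes overlap in all 10 genes, and for Gad1, Gad2 and Cort 4 ki/ki mice lie below every wt/wt mouse.

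Gad1 (ENSMUSG00000070880, GRCm38 chr2:70553072-70602014, plus strand) encodes GAD67, the decarboxylase found throughout the inhibitory neuron. Its value was lowest at 3293, median 3428 and highest at 3525 in ki/ki mice, and 3457, 3629 and 3909 in wt/wt mice. Mice 2, 3, 5 and 7 of the ki/ki group were below every wt/wt mouse, wt/wt mice 2, 3, 4, 5, 6 and 8 were above every ki/ki mouse, and the ranges overlapped between 3457 and 3525. The means were 3423 ± 82.6 and 3638 ± 151 (SD, n = 8 each), a difference of 5.85% (log2 fold change -0.09, SE 0.02, limma adjusted p = 0.0681). The 95% interval ran from -8.51% to -3.11%, and the exact two-sided permutation test over the 16 mice gave p = 0.00264.

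The Gad1 call was close to its limit. It was kept in 7 of 16 fits that left out a mouse, and it was lost without ki/ki mouse 2 (limma adjusted p = 0.165), 3 (0.155), 4 (0.106), 5 (0.163) or 7 (0.163) and without wt/wt mouse 3 (0.149), 4 (0.196), 6 (0.14) or 8 (0.325). Mouse 8 was the highest of the wt/wt group at 3909, and the log2 fold change without it was -0.07. The call was also lost when no genes were filtered out (adjusted p = 0.114), after quantile normalization (0.139) and without the robust variance estimate (0.2). The direction was lower in ki/ki mice in all these fits.

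**Figure D3:**
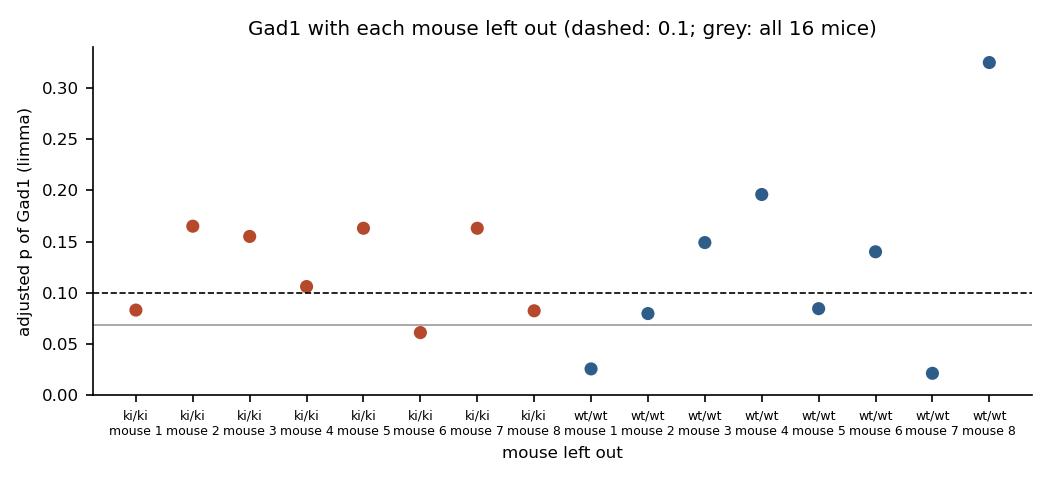
Adjusted p of Gad1 from limma (vertical axis) with each of the 16 mice left out in turn (horizontal axis, ki/ki in red and wt/wt in blue), with a dashed line at the limit of 0.1 and a grey line at the value with all mice. There are 9 points above the dashed line, the highest at 0.325 without wt/wt mouse 8.

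Gad2 (ENSMUSG00000026787, chr2:22622205-22693874, plus strand) encodes GAD65, the form concentrated in the nerve terminal. Its lowest, median and highest values were 2580, 2608 and 2730 in ki/ki mice and 2591, 2771 and 2825 in wt/wt mice. Mice 2, 5, 6 and 8 of the ki/ki group were below every wt/wt mouse, although wt/wt mouse 2, at 2591, lay among the ki/ki values. The means of 2624 ± 52.3 and 2740 ± 74.7 differed by a log2 fold change of -0.06 (95% interval -0.10 to -0.02), with an unadjusted p of 0.00354 and a limma adjusted p of 0.497, which missed the limit. The exact permutation p of this single gene was 0.00435.

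Slc32a1 (ENSMUSG00000037771, chr2:158610767-158615748, plus strand), the vesicular GABA transporter, had nearly equal means of 870.9 ± 42.1 in ki/ki and 862.6 ± 48.5 in wt/wt mice (SD, n = 8 each). It ranged from 798 to 927 in ki/ki mice (median 876.5) and from 785 to 922 in wt/wt mice (median 863). The genotypes covered nearly the same range, with a log2 fold change of 0.01 (95% interval -0.05 to 0.08, limma adjusted p = 0.977). The antisense gene Gm14205 shares 697 of its exon bases (24.9%). Whether the counting used strand was not stated, so reads of both genes may be mixed in this value.

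The level of Gad1 relative to its partners was compared within each mouse. These ratios reuse the Gad1 values that gave the call and were adjusted over 4 tests, against 23244 for the call. They describe Gad1 beside its partners and are not separate evidence of its fall. Relative to Slc32a1, Gad1 was lower in ki/ki mice by a log2 difference of -0.10 (exact permutation p = 0.0244, adjusted over 4 ratios 0.0488), and 7 of 8 ki/ki mice lay below the wt/wt median. Relative to the mean of 12 pan-neuronal genes the difference was -0.06 (exact permutation p = 0.0171, adjusted 0.0488, 6 of 8 mice). It was -0.05 relative to 13 glutamatergic genes (exact permutation p = 0.104, adjusted 0.139) and -0.02 relative to Gad2 (exact permutation p = 0.359, adjusted 0.359), and neither passed the limit. The log2 ratio of Gad1 to Gad2 ranged from 0.31 to 0.45 in ki/ki mice and from 0.31 to 0.48 in wt/wt mice.

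Pvalb (ENSMUSG00000005716, chr15:78191114-78206400, minus strand), which encodes the calcium-binding protein of fast-spiking basket and chandelier cells and is also high in Purkinje cells, ranged from 732 to 804 in ki/ki mice (median 751) and from 658 to 813 in wt/wt mice (median 744.5). All ki/ki values lay inside the wt/wt range, and wt/wt mouse 5 was the lowest of the 16. The log2 fold change was 0.02 (95% interval -0.05 to 0.09, limma adjusted p = 0.971). The coefficient of variation was 3.32% in ki/ki and 7.68% in wt/wt mice, a difference in spread that was not tested.

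**Figure D4:**
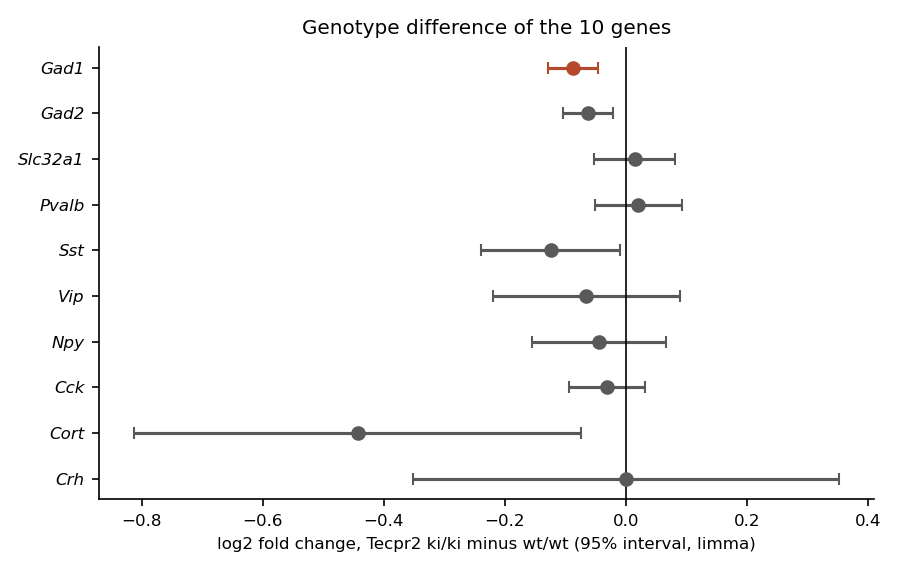
Log2 fold change of each gene, ki/ki minus wt/wt (horizontal axis), with its 95% interval from limma. Gad1, in red, is the only gene called, the intervals of Gad2, Sst and Cort lie below 0 without passing the adjusted limit, and the intervals of the other 6 genes include 0.

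Sst (ENSMUSG00000004366, chr16:23889573-23890958, minus strand) encodes somatostatin, the peptide of dendrite-targeting interneurons such as Martinotti cells. Its lowest, median and highest values were 417, 473 and 553 in ki/ki mice and 435, 533.5 and 585 in wt/wt mice. Mice 7 and 8 of the ki/ki group were below every wt/wt mouse, 7 of 8 ki/ki mice were below the wt/wt median, and ki/ki mouse 2 was above all but the highest wt/wt mouse. The log2 fold change of -0.12 (95% interval -0.24 to -0.01) had an unadjusted p of 0.035, a limma adjusted p of 0.807 and an exact permutation p of 0.0816.

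Cort (ENSMUSG00000028971, chr4:149125034-149126763, minus strand) encodes cortistatin, the relative of somatostatin whose coding stretch is shown above. Its lowest, median and highest values were 8, 16 and 24 in ki/ki mice and 16, 21.5 and 27 in wt/wt mice. Mice 3, 4, 5 and 8 of the ki/ki group were below every wt/wt mouse, and wt/wt mice 1 and 2 were above every ki/ki mouse. The fitted difference was the largest of the set at 26.5% lower (log2 fold change -0.44, 95% interval -0.81 to -0.07), but the values were of the order of 20 reads, and the test gave an unadjusted p of 0.0192, a limma adjusted p of 0.726 and an exact permutation p of 0.0345. With the genotype means removed, Sst and Cort had a correlation near 0 among the mice (Pearson r = -0.00383, permutation p = 0.988, adjusted 0.988; Spearman rho = -0.0441, permutation p = 0.875, adjusted 0.991; 16 mice).

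Vip (ENSMUSG00000019772, chr10:5639218-5647617, plus strand), the peptide gene of interneurons that inhibit other interneurons, ranged from 116 to 135 in ki/ki mice (median 130.5) and from 102 to 161 in wt/wt mice (median 139). All ki/ki mice lay within the wt/wt range, and wt/wt mice 1 and 2, at 102 and 106, lay below the rest of both groups. The coefficient of variation was 15.9% in wt/wt and 5.92% in ki/ki mice, again without a test of the spread. The log2 fold change was -0.07 (95% interval -0.22 to 0.09, limma adjusted p = 0.945).

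Npy (ENSMUSG00000029819, chr6:49822710-49829507, plus strand), which encodes neuropeptide Y of neurogliaform and many somatostatin interneurons, ranged from 210 to 263 in ki/ki mice (median 247.5) and from 229 to 287 in wt/wt mice (median 241.5). The medians and the means (240.9 and 248.5) stood in opposite order, and ki/ki mice 8 and 5, at 210 and 218, were the lowest of the 16. The log2 fold change was -0.04 (95% interval -0.16 to 0.07, limma adjusted p = 0.95). Cck (ENSMUSG00000032532, chr9:121489824-121495694, minus strand), the cholecystokinin gene, ranged from 790 to 875 in ki/ki mice (median 831) and from 784 to 902 in wt/wt mice (median 839.5). All ki/ki values of Cck lay inside the wt/wt range, with a log2 fold change of -0.03 (95% interval -0.09 to 0.03, limma adjusted p = 0.931).

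Crh (ENSMUSG00000049796, chr3:19693401-19695396, minus strand), the corticotropin-releasing hormone gene, ranged from 14 to 28 in ki/ki mice (median 19.5) and from 11 to 26 in wt/wt mice (median 20.5). The genotypes overlapped throughout, with means of 19.4 ± 4.41 and 19.5 ± 4.57 (SD, n = 8 each) and a log2 fold change of 0.00. At this level the 95% interval, from -0.35 to 0.35, still allowed changes larger than the fall of Gad1, and for Pvalb, Slc32a1 and Cck the intervals were narrower.

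No pair of the 10 genes passed the test for varying together from mouse to mouse. Over the 45 pairs, with genotype means removed, 2 had an unadjusted permutation p under 0.05 and the smallest adjusted p was 0.178, while the median Pearson r was 0.105 with 29 pairs positive. Gad2 and Slc32a1 had the highest value (r = 0.667, permutation p = 0.00395, adjusted 0.178; rho = 0.634, permutation p = 0.00984, adjusted 0.221; r = 0.522 without the 2 mice farthest from the Gad2 median). Cck and Cort had the lowest (r = -0.619, permutation p = 0.00964, adjusted 0.217; rho = -0.694, permutation p = 0.00377, adjusted 0.17; r = -0.703 without 2 mice). Gad1 and Gad2, which serve the same reaction, had r = 0.256 (permutation p = 0.338, adjusted 0.802; rho = 0.0971, permutation p = 0.719, adjusted 0.955; r = 0.19 without 2 mice).

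The genes whose pattern over the 16 mice was most like that of each member, genotype means removed, were picked as the highest Pearson r among 13700 genes with a mean of at least 50, so their height reflects that choice and is given without a p. For Gad1 they included Plpp3 (0.835), BC031181 (0.825), Aida (0.802) and Emc9 (0.792). They were Xpr1 for Gad2 (0.861), Fbxw8 for Slc32a1 (0.877), Mindy1 for Pvalb (0.901), Tepsin for Sst (0.852) and Hist1h4f for Vip (0.794). For Npy, Cck, Cort and Crh they were Fgfr3 (0.83), Rragb (0.865), Ubxn11 (0.812) and Plcd1 (0.868). In Vip the likeness rested on the wt/wt mice (r = 0.95, against 0.257 in ki/ki) and in Cort on the ki/ki mice (r = 0.96, against 0.204 in wt/wt), with 8 mice in each.

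Gad1 was the only call in the wider GABA pathway. Of 13 genes for GABA synthesis, transport and breakdown, which include Gad1, Gad2 and Slc32a1, all were tested and 1 was called. The median log2 fold change was -0.002, with 7 genes lower and 6 higher. Of 17 interneuron transcription factors none was called, and 12 had a fitted change above 0. The smallest p-values there belonged to Dlx1, which acts in the forebrain progenitors of GABA neurons (75.1 ± 8.95 in ki/ki against 62.8 ± 8.92 in wt/wt mice, log2 fold change 0.26, limma adjusted p = 0.641), and to Sox6, a factor of interneurons from the medial ganglionic eminence (438.9 ± 14.3 against 414.8 ± 20.5, 0.08, adjusted p = 0.82). Both values were higher, not lower, in ki/ki mice, and neither passed the test.

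Other markers of interneuron classes and the receptors of the peptides gave no calls. None of 20 further class markers passed the test, 15 of them with a fitted change below 0 and a median of -0.018. Kcnc2, a potassium channel gene of fast-spiking cells, had a log2 fold change of -0.05 (limma adjusted p = 0.821), and Tac1, the substance P precursor, had -0.11 (adjusted p = 0.875). Tac1 is also counted in the lists of other neuropeptides and of striatal projection neurons read below. None of 15 tested receptor and binding protein genes (of 16 listed) was called, with a median of 0.013 and no unadjusted p under 0.05. The somatostatin receptor gene Sstr3 had -0.10 (adjusted p = 0.886) and the Crh receptor gene Crhr2 had 0.24 (adjusted p = 0.903).

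Among 30 further neuropeptide genes, 23 were tested, 17 had a fitted change below 0 and 1 was called. That gene was Penk, the enkephalin precursor, which is abundant in striatal projection neurons of the indirect pathway. Its value was 1049 to 1149 in ki/ki mice (median 1089) and 1155 to 1308 in wt/wt mice (median 1197.5). Every ki/ki mouse was below every wt/wt mouse (log2 fold change -0.15, limma adjusted p = 0.00219, exact permutation p = 0.000155, the smallest that 8 against 8 mice can give). Oxt, the oxytocin gene, had 21.8 ± 5.37 in ki/ki and 28.9 ± 4.55 in wt/wt mice (log2 fold change -0.42, adjusted p = 0.641), and Kiss1 was listed at 0 in all mice.

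**Figure D5:**
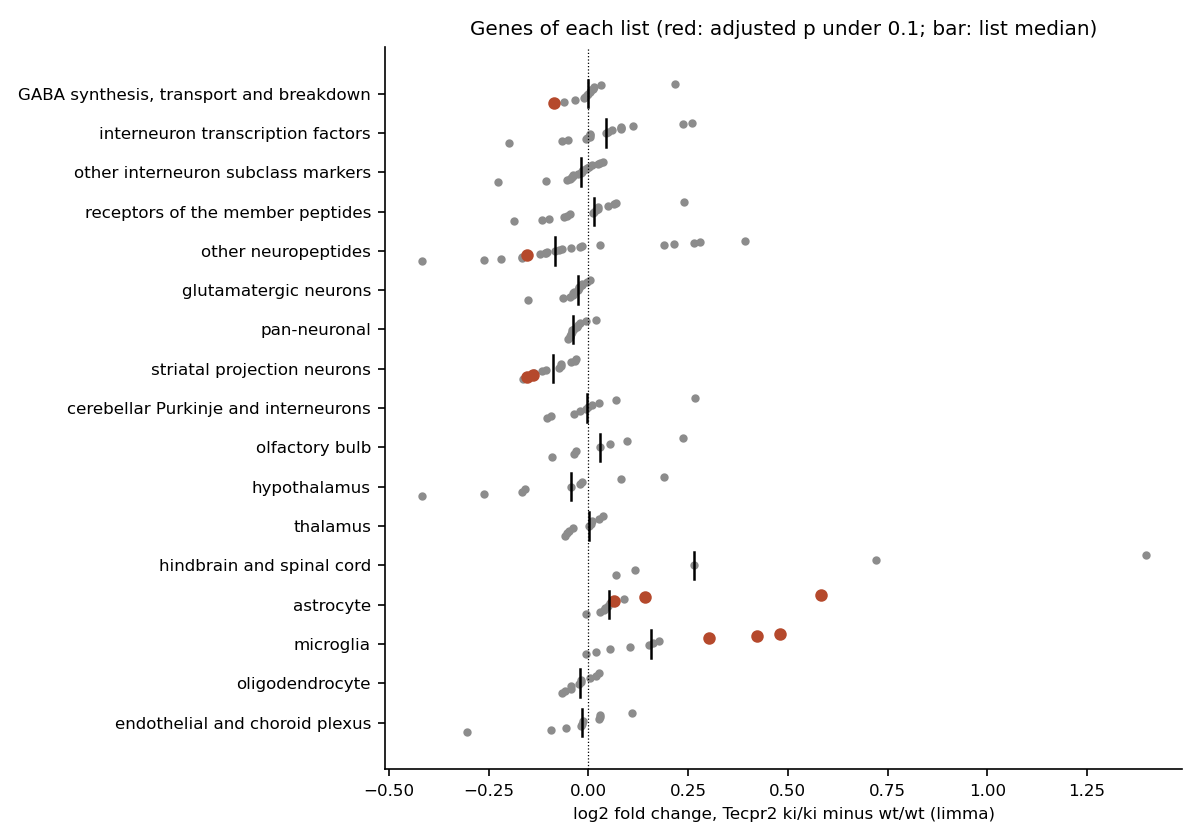
Log2 fold change, ki/ki minus wt/wt (horizontal axis), of every tested gene in 17 lists of GABA pathway genes, peptides and cell type or region markers, with a bar at each list median and called genes in red. Called genes include Gad1 and Penk on the lower side and 3 astrocyte and 3 microglia genes on the higher side.

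Markers of other cells and regions that hold GABA neurons were read beside these results. All 12 striatal projection neuron markers had a fitted change below 0 (median -0.09), and Penk, described above, was among those called. Their summed value was 10100 to 10555 in ki/ki mice and 10630 to 11250 in wt/wt mice, without overlap, and none was listed at 0 in all mice. This sum includes Penk, whose own values did not overlap, and the sum without Penk was not taken. The sums of the astrocyte and microglia lists, given below, did not overlap between genotypes either. Of 10 markers of cerebellar Purkinje cells and interneurons none was called (median -0.004), and their sums overlapped (20036 to 21868 and 19759 to 22408). The part of these cells in the fall of Gad1 was not tested.

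Markers of neurons at large and of glia were read in the same way. Of 12 pan-neuronal genes 11 and of 13 glutamatergic genes 12 had a fitted change below 0, with medians of -0.038 and -0.026, none was called, and the sums overlapped between genotypes (68923 to 71789 against 69199 to 73792, and 31142 to 32966 against 31000 to 33450). Of 10 astrocyte markers 3 rose (Gfap, Aqp4 and Slc1a2), and the list summed to 65530 to 67989 in ki/ki and 61885 to 65321 in wt/wt mice. Of 10 microglia markers 3 rose (C1qb, C1qa and Trem2), with sums of 2477 to 2693 and 2181 to 2413. No marker of either glial list was at 0 in all mice, and the part of glial RNA in the values of the interneuron genes was not tested.

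The lists for oligodendrocytes, endothelium and choroid plexus, olfactory bulb, hypothalamus, thalamus, and hindbrain and spinal cord gave no calls. All 5 tested genes of the 12 hindbrain and spinal cord markers had a fitted change above 0, with a median of 0.265. Hoxb4, a patterning gene of this region, had the largest fitted change (7.25 ± 2.76 in ki/ki and 2.62 ± 2.07 in wt/wt mice, log2 fold change 1.4, limma adjusted p = 0.165). It passed the filter through its ki/ki values only (median 7, against 2.5 in wt/wt mice), and the other 7 listed genes were not tested. The shared direction and the median of this list are therefore shaped by the filter. The summed values of all 12 overlapped (372 to 546 and 335 to 499). The olfactory bulb holds GABA neurons, the granule and periglomerular cells. Its list marks the region and not these cells alone, and had a median of 0.029 over 7 tested genes.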

How the data were processed

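Whole brain RNA of 16 mice was measured. The authors trimmed reads (Trim Galore 0.6.10, cutadapt 3.4) and aligned them (STAR 2.7.10b) to GRCm39, per the submitters' processing notes and the study's methods. Reads were counted per gene with summarizeOverlaps in its IntersectionNotEmpty mode, and whether strand was used is not given in the sources used here. The deposited values are a normalized score, linear and rounded to whole numbers by the authors, whose divisor was not given. They are not raw counts, so no count model was used. The tables of single mice were identical to the series table in 16 of 16 mice.

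From these, log2(value + 1) was fitted by genotype with limma 3.58.1 (R 4.3.3, trend and robust variance), for genes with a summed value over 16 and a value over 5 in 4 or more mice of either genotype. P-values were adjusted by Benjamini-Hochberg over all tested genes, and calls were made under 0.1. A fold change on this scale understates the change of low genes. Single genes and ratios had an exact two-sided permutation test over 12870 assignments, correlations 100000 resamples (scipy 1.17.1). Among 120 pairs of libraries none differed by as little as sampling noise. Coordinates and exon lengths come from GENCODE M21 and promoters from RefSeq, both on GRCm38; no coordinate was converted, and 9 of 10 members had a promoter entry. The members and the gene lists were chosen with earlier results of these data known. Named genes are the members, every called list gene, the 2 smallest p-values in the lists of the GABA pathway, interneurons, receptors and peptides, and the most alike genes; Hoxb4 was chosen after its value was seen. Some genes that this rule names are not reported here. Read depths were estimated from the whole numbers that each rounded library skips or doubles; in libraries with a divisor near 1 this estimate is uncertain. Depth limits the precision of Cort, Crh and other genes with few reads.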

Additional observations from a re-analysis of the deposited data

How the results depend on the processing

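Over all genes, 31 calls became 20 (16 higher, 4 lower) without the filter, when 41926 genes were tested, and 25 to 40 when a mouse was left out. Quantile normalization gave 28 higher and 6 lower and the fit without robust variance gave 24 higher and 5 lower, against 22 and 9. Calls among the list genes went from 9 to 5 without the filter and ranged from 6 to 9 with a mouse left out. Among the 10 members, 1 call became 0 without the filter, after quantile normalization and without robust variance (Gad1 -0.0869 with limma adjusted p = 0.114, -0.0748 with 0.139 and -0.0869 with 0.2), and it ranged from 0 to 1 with a mouse left out (Gad1 -0.0972 to -0.0719, adjusted p = 0.0212 to 0.325). The cause was not tested. Without the filter, both the number of tested genes and the genes behind the variance estimate changed. Crh reversed to 0.0008 with a pseudocount of 0.1 and to 0.0036 with equal library totals, and ranged from -0.1052 to 0.0619 with a mouse left out. With a mouse left out Slc32a1 ranged from -0.0049 (without wt/wt mouse 2) to 0.032 and Pvalb from -0.0054 (without wt/wt mouse 5) to 0.0381. The ratio of Gad1 to glutamatergic genes ranged from -0.0641 to -0.0346 with a mouse left out and passed in 3 of 16 cases (exact permutation tests, adjusted p = 0.0423 to 0.274). Ratios to Slc32a1 and pan-neuronal genes passed in all 16 (at most 0.0957). The ratios reuse the Gad1 values and were adjusted over 4 tests, so they do not make the Gad1 call itself firmer. The other members kept their direction and were not called, but with a mouse left out Vip ranged from -0.1207 to -0.0274, Npy from -0.0635 to -0.0147, Cck from -0.0471 to -0.0182, Sst from -0.1609 to -0.097, Cort from -0.5287 to -0.3182, Gad2 from -0.0738 to -0.056 and the ratio of Gad1 to Gad2 from -0.0382 to -0.0136. Mice of the same replicate number were little alike (correlations -0.0393 to 0.149, 1 of 8 over 0.1). However, 3 of 8 ki/ki mice were closest to the wt/wt mouse of their own number. Whether the numbers pair the mice was not tested, and the main fit did not pair them. A fit with the replicate block gave 46 calls over all genes, 9 in the lists and 1 among the members (Gad1 limma adjusted p = 0.0255). Cort and Crh, of the order of 20 reads, are limited by depth.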
